A study of Mus musculus with 6 samples.

Results

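The genes described here are 9 in number: Slc7a11, Gclc, Gclm, Gss, Gsr, Gpx1, Gpx3, Gpx4 and Ggt7, chosen by name for their place in glutathione synthesis and peroxide reduction. All 9 had a row among the 21878 genes of the deposited tables, and all 9 were among the 14440 genes with enough reads to be tested. The study compared bulk RNA of the prefrontal cortex of 3 Gls1_CamkIIaCre mice (CamKIIαCre;Gls1+/flox) with that of 3 control littermates (CamKIIαCre;Gls1+/+). Mice of both groups therefore carry Cre under the CamKIIα promoter, which is active in forebrain excitatory neurons, and the mutants are mosaic heterozygotes that keep 1 intact Gls1 allele in every cell, since homozygous mutants did not survive. All cells of the tissue entered the RNA, so the measured level of a gene mixes recombined neurons with every other cell type. The sources used here do not give age, sex or strain.

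Glutathione is the most abundant small thiol of brain cells. It is assembled from glutamate, cysteine and glycine: the cystine carrier Slc7a11 brings in cysteine in its oxidised form, glutamate-cysteine ligase (catalytic subunit Gclc, modifier subunit Gclm) joins glutamate to cysteine in the rate-limiting step, and glutathione synthetase (Gss) adds glycine. The glutathione peroxidases Gpx1, Gpx3 and Gpx4 spend it to reduce peroxides, glutathione reductase (Gsr) restores it at the cost of NADPH, and gamma-glutamyltransferases cleave it outside the cell. Glutamate is both a building block of glutathione and the amino acid that Slc7a11 sends out in exchange for cystine.

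The libraries held 17987807 to 19265382 reads assigned to genes in Gls1_CamkIIaCre mice and 18665024 to 19330961 in control mice. Markers of neighbouring brain tissue differed between the groups. Of 16 striatal marker genes, 14 were lower in the mutants, with a summed level of 428 to 480 CPM (read counts scaled to library size) in Gls1_CamkIIaCre mice and 984 to 1584 CPM in control mice. Excitatory neuron markers of cortex were present in every library, with a summed level of 5616 to 6162 CPM in Gls1_CamkIIaCre mice and 5472 to 5779 CPM in control mice, and 1 of 10 was higher in the mutants and 0 lower. Most of this sum was Camk2a, at 3403 to 3768 CPM in Gls1_CamkIIaCre mice and 3191 to 3306 CPM in control mice. Of the 10 markers, 5 had a negative log2 fold change. Levels below are CPM after TMM scaling unless FPKM, which also divides by gene length, is named, fold changes are log2 of Gls1_CamkIIaCre over control with their standard error, and a gene was called at an adjusted p under 0.05 in edgeR's quasi-likelihood test, adjusted by Benjamini-Hochberg over all 14440 genes.

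Gpx1 and Gpx4, the peroxidases with the highest level per length in this tissue, were lower in Gls1_CamkIIaCre cortex: Gpx1 fell by 11.5% and Gpx4 fell by 9.07%. The 4 genes that import cystine and build glutathione (Slc7a11, Gclc, Gclm and Gss), the reductase Gsr, the plasma peroxidase Gpx3 and the gamma-glutamyltransferase family gene Ggt7 did not pass the test. Of the 9 genes, 2 were lower and 0 were higher, whereas 4.29% of all tested genes were lower, 3.95% were higher and 8.24% were called in either direction. Without adjustment, p was under 0.05 for the same 2 genes of the 9 and for 22.4% of all tested genes. DESeq2 called 0 of the 9 and limma voom called 2 lower and 0 higher. The median log2 fold change was -0.09 over the 9 genes and -0.0024 over all tested genes, with 7 negative values and 2 positive ones.

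**Figure D1:**
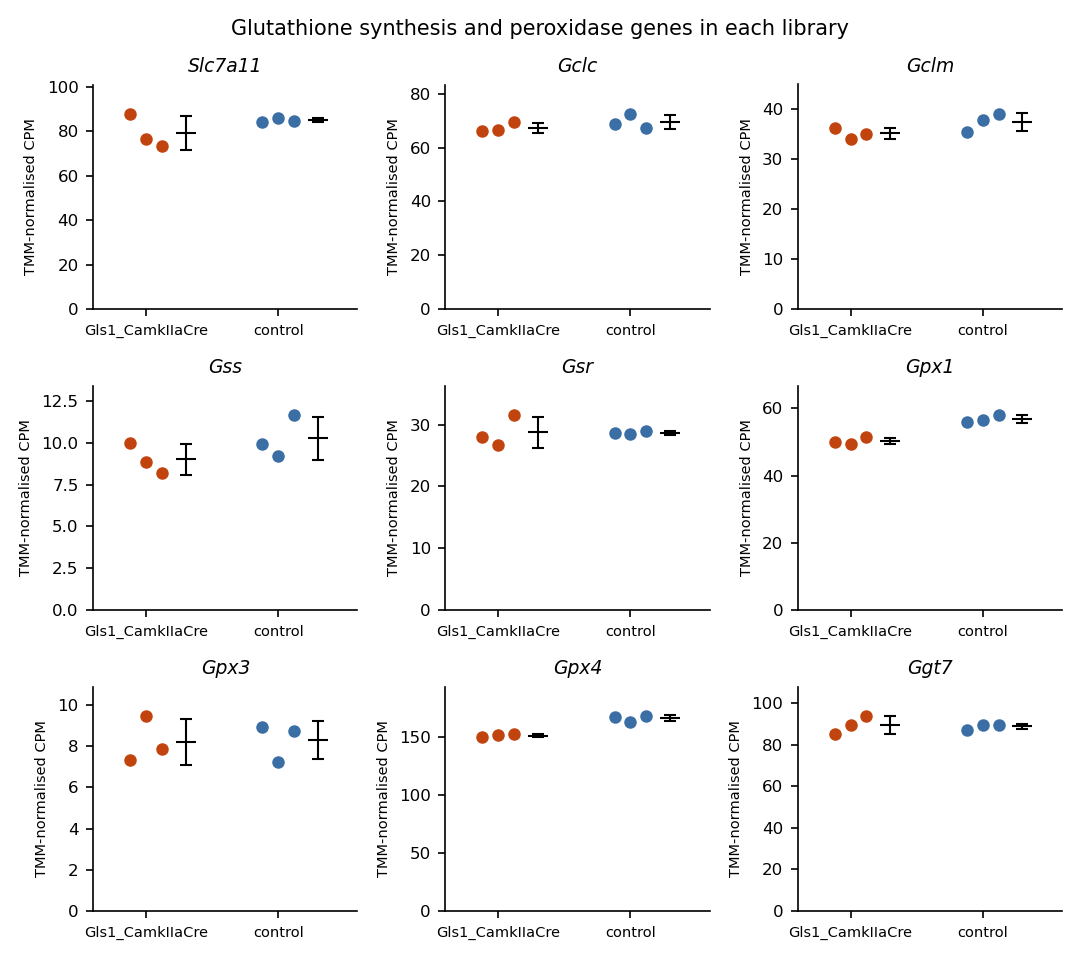
Level of each of the 9 genes in CPM (y axes starting at 0, one panel per gene) in the 3 Gls1_CamkIIaCre and the 3 control libraries, drawn as points with the group mean and SD. Only the panels of Gpx1 and Gpx4 show every mutant point under every control point, Gpx1 at 49.5 to 51.4 CPM in Gls1_CamkIIaCre against 55.8 to 58.1 CPM in control mice and Gpx4 at 149 to 152 CPM in Gls1_CamkIIaCre against 163 to 168 CPM in control mice.

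Both called enzymes are selenoproteins. Their active site holds selenocysteine, which is written in the mRNA as a UGA codon that would otherwise stop translation. Gpx1, Gpx3 and Gpx4 carry this codon, whereas the cysteine peroxidases Gpx6, Gpx7 and Gpx8 of mouse have a cysteine codon at the aligned position. The windows below show that contrast among the peroxidases whose levels follow. Each holds 45 bases of the coding strand, 5′ to 3′, from the GENCODE M21 transcripts on GRCm38, with the active-site codon in capitals.
Gpx1: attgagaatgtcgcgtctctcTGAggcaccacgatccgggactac
Gpx3: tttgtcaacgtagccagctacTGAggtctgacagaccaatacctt
Gpx4: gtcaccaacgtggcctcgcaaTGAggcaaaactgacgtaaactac
Gpx6: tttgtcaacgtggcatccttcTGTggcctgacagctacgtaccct
Gpx7: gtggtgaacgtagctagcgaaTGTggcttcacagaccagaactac
Gpx8: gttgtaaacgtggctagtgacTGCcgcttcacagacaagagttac
The codon is number 47 of 201 in Gpx1 on chromosome 9 (chr9:108339451-108339453, plus strand), number 73 of 226 in Gpx3 on chromosome 11 (chr11:54907256-54907258, plus strand) and number 129 of 253 in the longest annotated form of Gpx4 on chromosome 10 (chr10:80054737-80054739, plus strand).

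Gpx4 reduces lipid peroxides inside membranes and is the enzyme whose loss sets off ferroptosis, a form of cell death driven by lipid peroxidation. Its gene lies at chr10:80047166-80056439 on GRCm38, and its level was 149, 151 and 152 CPM in the 3 Gls1_CamkIIaCre mice and 167, 163 and 168 CPM in the 3 control mice. The highest mutant library stood below the lowest control library. The means were 151 ± 1.52 CPM in Gls1_CamkIIaCre mice and 166 ± 2.80 CPM in control mice (SD, n = 3 each), a log2 fold change of -0.14 ± 0.040 with a 95% interval of -0.22 to -0.055 (edgeR, adjusted p = 0.0361), or -9.07%. Each library gave 2714 to 3279 Gpx4 reads. Counts per gene sum the mitochondrial, cytosolic and nuclear forms of the enzyme. The genome also holds 2 Gpx4 pseudogenes, Gpx4-ps1 and Gpx4-ps2, and how the authors' counting shared reads with them is not given in the sources used here.

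Gpx1 is the ubiquitous cytosolic and mitochondrial peroxidase that removes hydrogen peroxide. Its gene lies at chr9:108339080-108340342, and its level was 49.9, 49.5 and 51.4 CPM in Gls1_CamkIIaCre mice and 55.8, 56.6 and 58.1 CPM in control mice. These groups did not overlap either. Gpx1 averaged 50.3 ± 0.984 CPM in Gls1_CamkIIaCre mice and 56.8 ± 1.16 CPM in control mice (SD, n = 3 each), a log2 fold change of -0.18 ± 0.052 with a 95% interval of -0.28 to -0.069 (edgeR, adjusted p = 0.0387), or -11.5%. Groups that did not overlap, with the mutants below, were found for these 2 of the 9 genes and for 13.6% of all tested genes. Groups that did not overlap with the mutants above were found for 0 of the 9 and for 13.1% of all tested genes.

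The calls of Gpx1 and Gpx4 lay close to the threshold. Both were lost when any 1 of the 6 libraries was left out, with edgeR's adjusted p between 0.0525 and 0.140 for Gpx1 and between 0.0553 and 0.118 for Gpx4, while the log2 fold change stayed between -0.19 and -0.16 for Gpx1 and between -0.15 and -0.13 for Gpx4. DESeq2 gave adjusted p = 0.116 for Gpx1 and 0.0554 for Gpx4.

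Fold changes in these libraries moved with transcript length. The tested genes with a known transcript were split by its length into 4 groups of about equal size. Of the shortest group (88 to 2314 bases), 7.0% were lower in Gls1_CamkIIaCre mice and 0.948% were higher, whereas 3.04% of the longest group (4928 bases or more) were lower and 8.82% were higher. Gpx4 (995 bases, 60.2% GC), Gpx1 (1072 bases, 57.2% GC) and Gpx3 (1594 bases, 56.0% GC) are in the shortest group, and Slc7a11 (9223 bases) and Gclm (5589 bases) in the longest. A correction for length and GC content, chosen after the data were seen, ended both calls. With it, the log2 fold change of Gpx1 was -0.08 (edgeR, adjusted p = 0.466) and that of Gpx4 was -0.04 (edgeR, adjusted p = 0.627). On the authors' FPKM values the difference was larger: log2(FPKM + 1) gave -0.24 for Gpx1 and -0.21 for Gpx4 (limma, adjusted p = 0.0113 for Gpx1 and 0.0237 for Gpx4). FPKM summed over all genes was also lower, at 238924 to 243144 in Gls1_CamkIIaCre mice and 249602 to 252272 in control mice. The part of these totals in the larger difference was not tested.

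**Figure D2:**
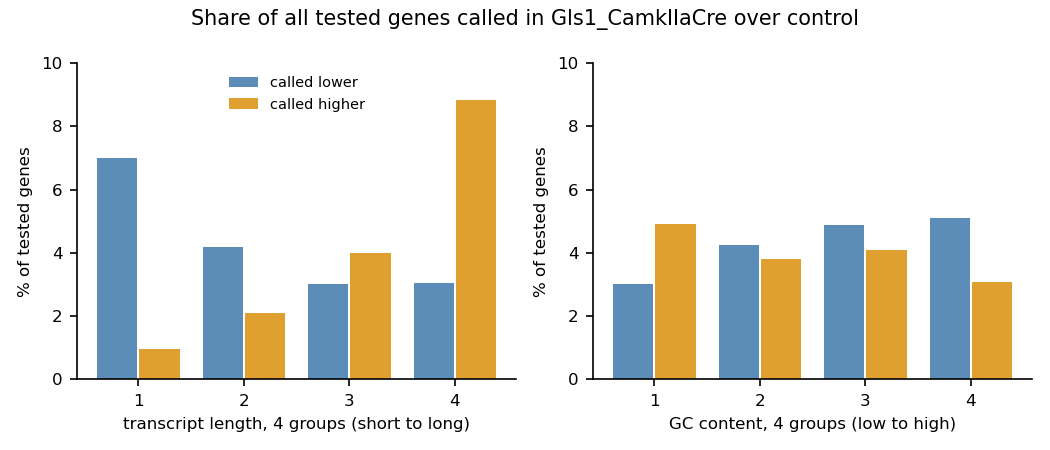
Share of tested genes called lower or higher in Gls1_CamkIIaCre mice (y axis, percent) in 4 groups of about equal size by transcript length and by GC content (x axes, short to long and low to high). In the shortest group 7.0% were lower and 0.948% higher, and in the longest 3.04% were lower and 8.82% higher.

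Markers of several cell types moved in the same direction as Gpx1 and Gpx4. Of 10 microglial markers, 4 were lower, and their summed level was 496 to 539 CPM in Gls1_CamkIIaCre mice and 549 to 617 CPM in control mice. Of 12 endothelial and mural markers, 5 were lower, with 445 to 477.2 CPM in Gls1_CamkIIaCre mice and 477.2 to 542 CPM in control mice. Of 12 oligodendrocyte markers, 5 were lower (3403 to 3912 CPM in Gls1_CamkIIaCre mice, 3758 to 4470 CPM in control mice), and of 12 astrocyte markers, 4 were lower (5564 to 5731 CPM in Gls1_CamkIIaCre mice, 5660 to 5992 CPM in control mice). Of 10 meningeal and fibroblast markers, 7 were lower, at 139 to 161 CPM in Gls1_CamkIIaCre mice and 184 to 206 CPM in control mice. Of 8 inhibitory neuron markers, 3 were lower (1036 to 1259 CPM in Gls1_CamkIIaCre mice, 1222 to 1348 CPM in control mice), and of 5 tested blood markers, 2 were lower (58.0 to 75.6 CPM in Gls1_CamkIIaCre mice, 76.2 to 90.6 CPM in control mice). Of 7 tested choroid plexus and ependyma markers, 0 were called by edgeR, DESeq2 or limma voom and 2 had an unadjusted p under 0.05 in edgeR, with a sum of 12.9 to 16.8 CPM in Gls1_CamkIIaCre mice and 18.2 to 21.3 CPM in control mice. None of the markers of these lists was at 0 in all libraries. The part of these cell types and of the striatal tissue in the lower Gpx1 and Gpx4 levels was not tested, and in bulk tissue fewer cells of a type and less RNA per cell cannot be told apart.

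Gpx3, the secreted peroxidase of plasma and extracellular fluid, is the third selenoprotein of the set and did not pass the test. Its gene lies at chr11:54902854-54910387. Its level was 7.33, 9.47 and 7.85 CPM in Gls1_CamkIIaCre mice and 8.93, 7.23 and 8.71 CPM in control mice, and the groups overlapped. The log2 fold change was -0.01 ± 0.13 with a 95% interval of -0.29 to 0.26 (edgeR, adjusted p = 0.969). With 137 to 175 reads per library, this interval also holds changes as large as those of Gpx1 and Gpx4.

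The cystine carrier Slc7a11, the light chain of system xc-, stands at the entry to glutathione synthesis (chr3:50364936-50499087). Its level was 87.8, 76.6 and 73.2 CPM in Gls1_CamkIIaCre mice and 84.3, 86.1 and 84.4 CPM in control mice. Mutant replicate 1 stood above every control library and the other 2 mutant libraries below every one, so that the groups overlapped through that 1 library. The SD was 7.64 CPM in Gls1_CamkIIaCre mice and 1.02 CPM in control mice (n = 3 each). The log2 fold change was -0.10 ± 0.057 with a 95% interval of -0.22 to 0.02 (edgeR, adjusted p = 0.316). Without mutant replicate 1 it was -0.18 (edgeR, adjusted p = 0.0536), still short of the threshold, and without mutant replicate 3 it was -0.05 (edgeR, adjusted p = 0.705). With the length and GC correction described above, which takes most of the difference from Gpx1 and Gpx4, that of this long transcript was -0.15 (edgeR, adjusted p = 0.0963).

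Gclc, the catalytic subunit of glutamate-cysteine ligase, lies at chr9:77754535-77794489. Its level was 66.3, 66.4 and 69.6 CPM in Gls1_CamkIIaCre mice and 68.9, 72.5 and 67.2 CPM in control mice, and the groups overlapped. The log2 fold change was -0.04 ± 0.050 with a 95% interval of -0.15 to 0.06 (edgeR, adjusted p = 0.662).

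Gclm, the modifier subunit that raises the ligase's affinity for glutamate and eases its feedback inhibition by glutathione, lies at chr3:122245487-122267215. Its level was 36.2, 34.1 and 35.1 CPM in Gls1_CamkIIaCre mice and 35.5, 37.8 and 39.1 CPM in control mice. The ranges overlapped through mutant replicate 1 and control replicate 1. The log2 fold change was -0.09 ± 0.062 with a 95% interval of -0.22 to 0.04 (edgeR, adjusted p = 0.410). The ratio of the ligase subunits per length did not differ beyond its spread, since Gclc FPKM over Gclm FPKM was 0.860 ± 0.026 in Gls1_CamkIIaCre mice and 0.866 ± 0.063 in control mice (SD, n = 3 each).

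Gss, the synthetase that adds glycine to gamma-glutamylcysteine, lies at chr2:155563181-155592810. Its level was 10.01, 8.85 and 8.17 CPM in Gls1_CamkIIaCre mice and 9.90, 9.22 and 11.7 CPM in control mice, and the groups overlapped. It had the most negative point estimate of the 9 genes, a log2 fold change of -0.19 ± 0.12, but rests on 155 to 217 reads per library, and its 95% interval of -0.44 to 0.07 includes 0 (edgeR, adjusted p = 0.396). The non-coding RNA Gssos2 overlaps the gene, and since the strand setting of the counting is not given in the sources used here, their reads cannot be told apart. The same holds for a non-coding RNA and a pseudogene that overlap Gclm, and for a small nucleolar RNA and a pseudogene that overlap Gsr.

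Gsr, the NADPH-dependent reductase that returns oxidised glutathione to its reduced form, lies at chr8:33653238-33698162. Its level was 27.9, 26.7 and 31.6 CPM in Gls1_CamkIIaCre mice and 28.6, 28.4 and 28.99 CPM in control mice. The control values lay inside the mutant range. The log2 fold change was 0.00 ± 0.071 with a 95% interval of -0.14 to 0.15 (edgeR, adjusted p = 0.983).

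Ggt7 belongs by sequence to the gamma-glutamyltransferases, the family that begins the breakdown of extracellular glutathione, and its own activity on glutathione is not well established. The gene lies at chr2:155490379-155514891, near Gss on the same chromosome. Its level was 84.9, 89.3 and 93.9 CPM in Gls1_CamkIIaCre mice and 87.1, 89.6 and 89.5 CPM in control mice, and here too the control values lay inside the mutant range. The log2 fold change was 0.01 ± 0.048 with a 95% interval of -0.09 to 0.11 (edgeR, adjusted p = 0.932). For Gclc, Gsr and Ggt7 the intervals thus reached no further than 0.15 on the log2 scale in either direction, whereas those of Gss and Gpx3 were wider. The intervals of Slc7a11 and Gclm (both from -0.22), Gss (from -0.44) and Gpx3 (from -0.29) also hold the log2 fold changes of Gpx1 and Gpx4. Those of Gclc and Gsr hold that of Gpx4.

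**Figure D3:**
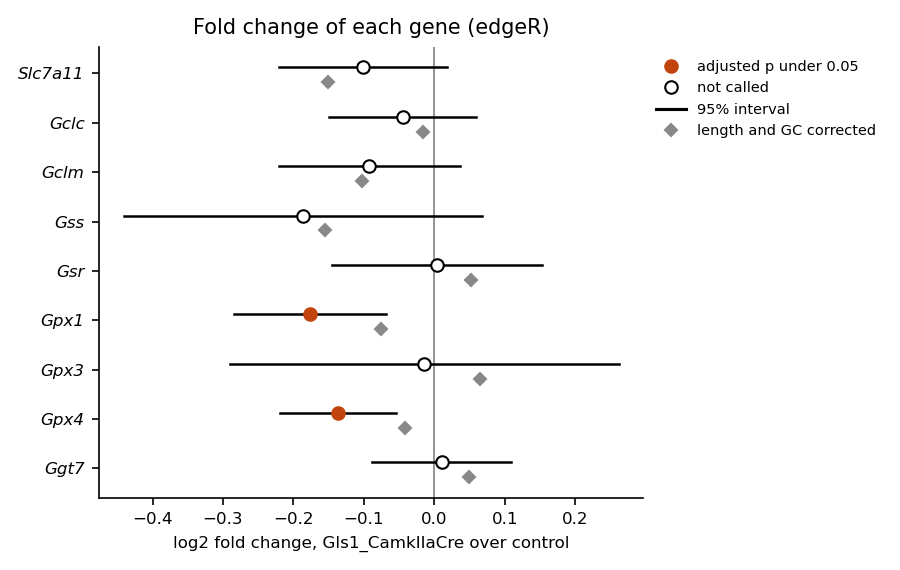
Log2 fold change of Gls1_CamkIIaCre over control for the 9 genes (x axis) with 95% intervals from edgeR's quasi-likelihood fit, filled where called, and grey diamonds for the value after the length and GC correction. The intervals of Gpx1 and Gpx4 end at -0.069 and -0.055, short of 0, and those of the other 7 genes include 0.

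Per length, Gpx4 was the highest of the 9 genes in every group, at 116 ± 3.70 FPKM in Gls1_CamkIIaCre mice and 135 ± 3.42 FPKM in control mice (SD, n = 3 each). Gpx1 followed with 58.1 ± 1.19 FPKM in Gls1_CamkIIaCre mice and 68.9 ± 0.608 FPKM in control mice. In Gls1_CamkIIaCre mice Ggt7 (23.9 FPKM), Gclm (15.6 FPKM), Gclc (13.4 FPKM) and Gsr (10.3 FPKM) came next, and in control mice Ggt7 stood at 25.4, Gclm at 16.5, Gclc at 14.3 and Gsr at 10.4 FPKM. Slc7a11 stood at 6.64 FPKM in Gls1_CamkIIaCre mice and 6.94 FPKM in control mice, and Gpx3 at 3.85 FPKM in Gls1_CamkIIaCre mice and 4.04 FPKM in control mice. Gss was lowest, at 3.13 ± 0.251 FPKM in Gls1_CamkIIaCre mice and 3.56 ± 0.550 FPKM in control mice. The order of the 9 means was the same in both groups, and of the 8 neighbouring pairs in it only Gss and Gpx3 had libraries that overlapped, in control mice. Summed, Gpx1, Gpx3 and Gpx4 gave 178 ± 4.34 FPKM in Gls1_CamkIIaCre mice and 208 ± 3.16 FPKM in control mice. The FPKM totals over all genes, given above, were lower in Gls1_CamkIIaCre mice as well.

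**Figure D4:**
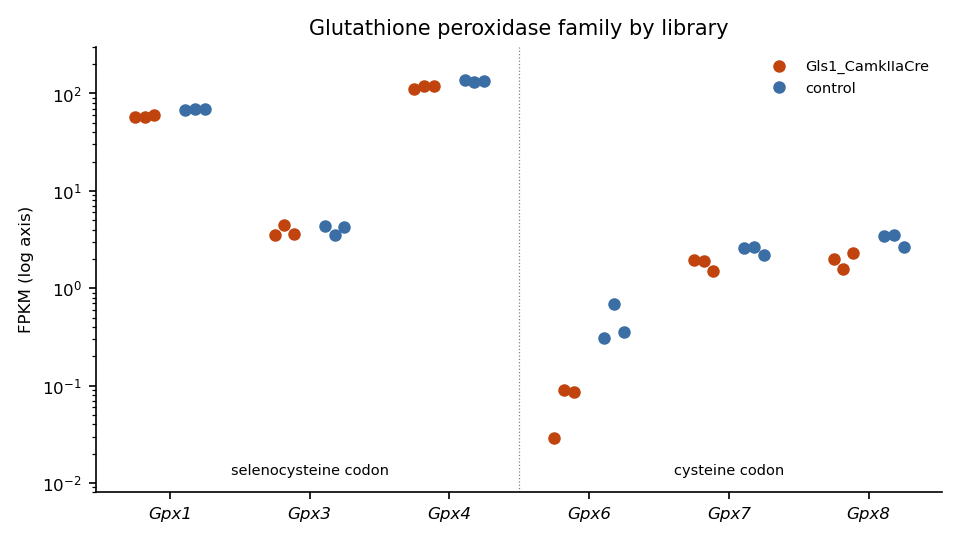
Level of the glutathione peroxidases in FPKM per library (log y axis), with Gls1_CamkIIaCre left of control for each gene and the type of active-site codon marked. Gpx4 and Gpx1 lie well above the other peroxidases in all 6 libraries, and within each group the libraries of Gpx6, Gpx7 and Gpx8 lie below those of Gpx3.

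The profile of Gpx4 over the 6 libraries, as log2 CPM centred on its mean, lay closest to that of Bsg, the membrane protein basigin that chaperones lactate carriers, at a root mean square distance of 0.011 on the log2 scale among 13731 genes of at least 1 CPM. Mrps30, a protein of the mitochondrial ribosome, and Tlk2, a chromatin kinase, followed, both at 0.014. Bsg was lower in the mutants (edgeR, adjusted p = 0.0314), whereas Mrps30 and Tlk2 did not pass the test (edgeR, adjusted p = 0.309 and 0.143). Whether such closeness over 6 libraries goes beyond replicate noise was not tested. Gpx1 ranked 91 at 0.030.

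The remaining glutathione peroxidases are expressed at low levels in this tissue. Gpx6 had 1, 3 and 4 reads in Gls1_CamkIIaCre mice and 15, 24 and 13 reads in control mice, with a log2 fold change of -2.60 ± 0.56 (edgeR, adjusted p = 0.00649). The pseudogene Gm11270 overlaps Gpx6, and how the authors' counting treated their reads is not given in the sources used here. Gpx8, an endoplasmic reticulum peroxidase, had 3.32, 2.39 and 3.32 CPM in Gls1_CamkIIaCre mice and 5.0, 5.24 and 4.03 CPM in control mice, with a log2 fold change of -0.66 ± 0.19 (edgeR, adjusted p = 0.0349). Both genes had every mutant library below every control library, as the striatal, meningeal, microglial, choroid plexus and blood marker sums given above also did, and the part of those tissues and cells was not tested. Gpx8 lies within the span of the coding gene Cdc20b, and its call was lost with DESeq2 (adjusted p = 0.0874), with the length and GC correction (edgeR, adjusted p = 0.0831) and when any 1 of 4 libraries was left out (mutant replicates 1 and 2, control replicates 1 and 2; edgeR, adjusted p between 0.0578 and 0.172). Gpx7 had 2.86 ± 0.611 CPM in Gls1_CamkIIaCre mice and 3.61 ± 0.231 CPM in control mice (SD, n = 3 each) and did not pass the test (edgeR, adjusted p = 0.348). Its mutant libraries (2.21 to 3.43 CPM) also lay below its control libraries (3.44 to 3.88 CPM), as was found for 13.6% of all tested genes. Gpx2 and Gpx5 had too few reads to be tested.

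The wider pathway was described through 10 lists of 126 genes, of which 114 were tested. In all, 1 gene was higher and 8 were lower, or 7.89% in either direction, which is close to the 8.24% of all genes called. By direction, 3.95% of all tested genes were higher and 4.29% were lower. The 9 calls of the lists were thus mostly lower, but only 5 calls were made with the length and GC correction. Without 1 library, 3 to 10 were made. The median log2 fold change of the 114 was -0.04. DESeq2 called 0 higher and 6 lower, and limma voom 1 higher and 7 lower.

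Among 11 tested genes of cysteine supply and transsulfuration, 1 was higher and 0 were lower. That gene was Slc3a2, the heavy chain with which Slc7a11 and other amino acid carriers reach the membrane. It had 108, 109 and 117 CPM in Gls1_CamkIIaCre mice and 101, 98.6 and 102 CPM in control mice, with a log2 fold change of 0.15 ± 0.045 (edgeR, adjusted p = 0.0443). The groups did not overlap, but the call was lost when any 1 of the 6 libraries was left out, where edgeR's adjusted p was between 0.0552 and 0.173, and with DESeq2 (adjusted p = 0.0814). It was also lost with upper-quartile factors (edgeR, adjusted p = 0.0726), without the robust option (edgeR, adjusted p = 0.0592) and on both FPKM scales (limma, adjusted p = 0.237 and 0.238), in all in 11 of 17 alternatives. Of 5 tested glutathione transporters, 0 were called by edgeR, DESeq2 or limma voom, and 0 had an unadjusted p under 0.05. Abcc4 and Abcc1, which export glutathione and its conjugates, had log2 fold changes of -0.19 and -0.12.

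Of 20 tested glutathione transferases, 1 was lower and 0 were higher. Gstm1, a mu-class transferase abundant in astrocytes, averaged 128 ± 3.71 CPM in Gls1_CamkIIaCre mice and 141 ± 1.5 CPM in control mice (SD, n = 3 each), a log2 fold change of -0.13 ± 0.041 (edgeR, adjusted p = 0.0486). Its call was lost in 10 of 17 alternative analyses. Gstm1 belongs to a multigene family, and how the authors' counting treated reads shared with other members was not tested. Of 7 glutaredoxins and glyoxalases, which use glutathione to mend thiols and clear methylglyoxal, 0 were called by edgeR, DESeq2 or limma voom, though 3 had an unadjusted p under 0.05 in edgeR, all lower. The glyoxalases Glo1 and Hagh had log2 fold changes of -0.13 ± 0.047 and -0.14 ± 0.055 (edgeR, adjusted p = 0.0962 for Glo1 and 0.134 for Hagh). Of 9 tested genes of glutathione breakdown, 0 were called by any of these tools and 1 had an unadjusted p under 0.05. The 2 with the smallest p there were Anpep, an aminopeptidase, at -0.42 ± 0.16, and Ggct, gamma-glutamylcyclotransferase, at -0.10 ± 0.12.

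Of 13 genes that supply NADPH, which Gsr consumes, 1 was lower and 0 were higher. Nnt, the mitochondrial transhydrogenase that makes NADPH from the proton gradient, averaged 19.1 ± 1.01 CPM in Gls1_CamkIIaCre mice and 24.1 ± 2.09 CPM in control mice (SD, n = 3 each). Its log2 fold change was -0.34 ± 0.081 (edgeR, adjusted p = 0.0132), and all 3 mutant libraries were below all 3 control libraries. The call was lost without mutant replicate 1 (edgeR, adjusted p = 0.0627) and without control replicate 3 (edgeR, adjusted p = 0.0675), and also on log2(FPKM + 1) and log2(FPKM + 0.1) (limma, adjusted p = 0.0630 and 0.0578), which makes 4 of 17 alternatives.

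Of 21 regulators and targets of Nrf2, the transcription factor that induces Gclc, Gclm, Slc7a11 and Gsr under oxidative stress, 2 were lower and 0 were higher. Srxn1, sulfiredoxin, which repairs over-oxidised peroxiredoxins, had 96.1, 95.4 and 98.8 CPM in Gls1_CamkIIaCre mice and 117, 117 and 110.4 CPM in control mice, and the groups were well apart. Its log2 fold change was -0.25 ± 0.044 (edgeR, adjusted p = 0.00186), and it was called in all 17 alternative analyses. Ftl1, ferritin light chain, averaged 216 ± 1.93 CPM in Gls1_CamkIIaCre mice and 240.4 ± 5.0 CPM in control mice (SD, n = 3 each), a log2 fold change of -0.15 ± 0.038 (edgeR, adjusted p = 0.0146). Its transcript is short (968 bases), and with the length and GC correction its call was lost (edgeR, adjusted p = 0.499). The call was also lost without mutant replicate 2 (edgeR, adjusted p = 0.0798) and without control replicate 1 (edgeR, adjusted p = 0.0674). The Nrf2 targets among the 9 genes themselves, Slc7a11, Gclc, Gclm and Gsr, did not pass the test.

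The core of the antioxidant response element to which Nrf2 binds was searched as TGACNNNGC on both strands in the RefSeq promoter windows of GRCm38.p6, 250 bases before to 50 after each start site. A window was held for 7 of the 9 genes (10 windows, 4 of them of Gpx4). The letters were found for Gclm alone of these 7, and in 12.4% of all 32851 windows. The 49 bases around it are shown since Gclm is the classical target of this factor, and the capitals mark the match, which reads on the opposite strand, 134 bases before the start site (chr3:122245403-122245451, plus strand printed).
Gclm: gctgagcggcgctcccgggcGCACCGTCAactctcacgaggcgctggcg
A match of letters is no evidence of binding, and more distant elements lie outside these windows.

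Of 14 tested genes of selenoprotein synthesis and selenium supply, 2 were lower and 0 were higher. The list also holds the selenoproteins Selenop, Selenok and Sephs2, named after their values were seen, which did not pass the test, with log2 fold changes of -0.15, -0.0038 and -0.10 (edgeR, adjusted p = 0.0582, 0.976 and 0.333). Selenof, a selenoprotein of the endoplasmic reticulum, averaged 151 ± 3.8 CPM in Gls1_CamkIIaCre mice and 171 ± 3.93 CPM in control mice, with a log2 fold change of -0.18 ± 0.041 (SD, n = 3 each; edgeR, adjusted p = 0.00996). Selenow, a small cytosolic selenoprotein abundant in brain, averaged 379 ± 5.28 CPM in Gls1_CamkIIaCre mice and 419 ± 11.5 CPM in control mice, with a log2 fold change of -0.14 ± 0.038 (SD, n = 3 each; edgeR, adjusted p = 0.0210). With the length and GC correction both calls were lost (edgeR, adjusted p = 0.0592 for Selenof and 0.813 for Selenow). When 1 library was left out, the call of Selenof was lost without mutant replicate 2 (edgeR, adjusted p = 0.0730) or control replicate 2 (0.0537), and that of Selenow without mutant replicate 1 (0.0885), mutant replicate 2 (0.0808), control replicate 2 (0.0503) or control replicate 3 (0.0630). Of 12 genes that act in ferroptosis beside Gpx4, 0 were called by edgeR, DESeq2 or limma voom, and 1 had an unadjusted p under 0.05. That was Ncoa4, the receptor for ferritin autophagy, at 51.8 ± 3.42 CPM in Gls1_CamkIIaCre mice and 46.3 ± 0.691 CPM in control mice (SD, n = 3 each), with a log2 fold change of 0.16 ± 0.058 (edgeR, adjusted p = 0.0891). Next by p was Slc40a1, the iron exporter ferroportin, at -0.15 ± 0.094.

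**Figure D5:**
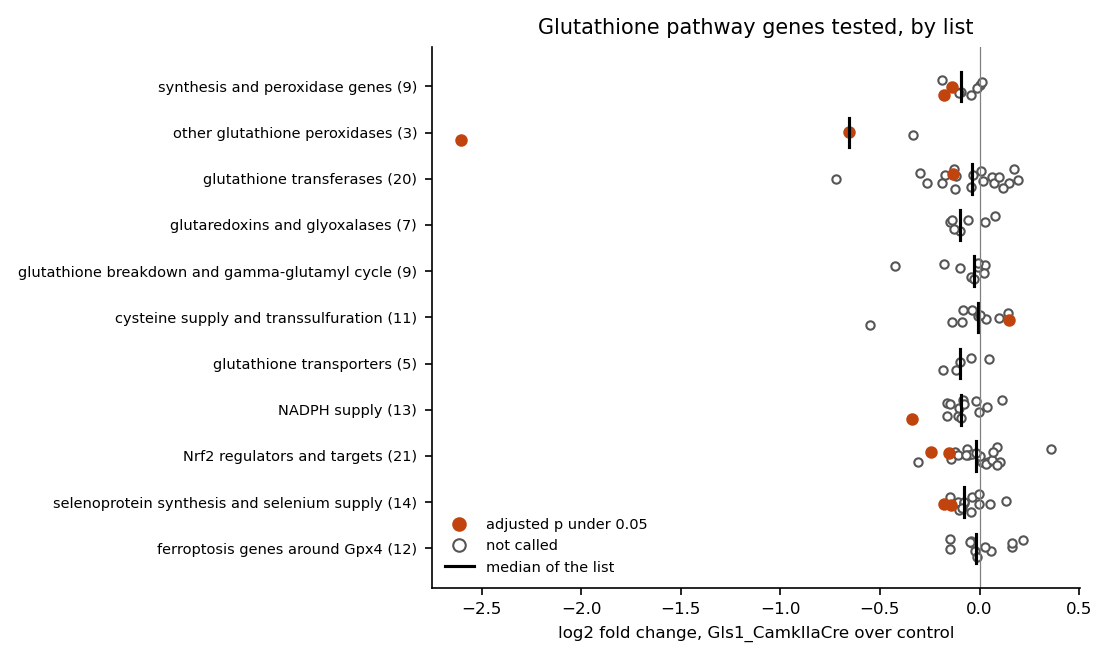
Log2 fold change of Gls1_CamkIIaCre over control for every tested gene of the 9 members and the 10 pathway lists (one row per list, 1 point per gene), with called genes marked. Most points lie near 0 in every row except that of the other glutathione peroxidases, whose 3 tested genes lie between -2.60 and -0.34. The called genes are mainly on the negative side.

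The glutathione metabolism pathway of KEGG, as annotated in the deposited tables, held 61 genes, of which 48 were tested, 8 of them from the 9 genes above. Of the 48, 6 were lower, or 12.5%, beside 4.29% of all tested genes, with a median log2 fold change of -0.09. The 6 were Gpx1, Gpx4, Gpx6, Gpx8, Gstm1 and Srm, the spermidine synthase. Of these, Gpx1, Gpx4, Gpx8 and Gstm1 lost their calls with DESeq2 and with the length and GC correction. For Gstm1 the adjusted p was 0.0950 in DESeq2 and 0.670 in edgeR with that correction. No alternatives are given here for Srm. This pathway was added after the data were seen. Gpx1 and Gpx4 were already counted among the 9 genes, and Gpx6, Gpx8 and Gstm1 among the pathway lists.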

How the data were processed

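RNA of the prefrontal cortex of 3 Gls1_CamkIIaCre and 3 control mice was sequenced from SMARTER mRNA libraries, per the labels' protocols. The authors deposited raw read counts per gene and FPKM values per gene, per the file headers; the submitters' processing notes name GRCm38, also called mm10. The sources used here name no aligner, counter or strand setting. Groups follow the sample titles, each mouse being 1 sample. The targeted gene's level is not reported here.

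The count test was that of edgeR 4.0.16 under R 4.3.3 (filterByExpr, TMM, robust quasi-likelihood F test, Benjamini-Hochberg over 14440 genes, threshold 0.05, group as the sole term). The common biological coefficient of variation was 4.75%. Alternatives used DESeq2 1.42.0, limma 3.58.1 (voom, and log2(FPKM + 1) or log2(FPKM + 0.1)), other scalings and filters, a replicate block, each library left out, and, chosen after the data were seen, edgeR with an offset for transcript length and GC content (splines of 4 degrees of freedom per library, longest GENCODE M21 transcript, known for 99.2% of tested genes). The test was checked on simulated counts. There it called 51 of 100 genes changed 1.2-fold, 92 of 100 changed 1.5-fold and 24 of 14240 unchanged genes. The changed genes were drawn from those with a mean of 50 counts or more, and were fewer than the genes called in the data. No shift with transcript length was simulated, so these shares need not hold for the data. Changes smaller than 1.2-fold were not simulated.

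The 9 genes and all lists were chosen with earlier results of these data known. Named genes are all 9, every called gene of a pathway list (at most 2 of smallest p where none was called), and the 3 profiles nearest to the member of smallest p. Symbols of 4 selenoprotein genes were matched through the NCBI gene identifier. Coordinates and promoters are from RefSeq (GRCm38.p6). Intervals and p-values rest on 3 mice per group.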

Additional observations from a re-analysis of the deposited data

How the results depend on the processing

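The direction of Gclc, Gclm, Gss, Gpx1, Gpx4 and Slc7a11 held in all 17 alternatives. The count of genes called among the 9 was 0 with DESeq2, 0 with the length and GC correction and 0 in each of the 6 analyses without 1 library. Over all genes, 1190 were called (571 higher, 619 lower), against 674 on log2(FPKM + 1) (116 higher, 558 lower), 729 on log2(FPKM + 0.1) (122 higher, 607 lower), 1178 with upper-quartile factors (429 higher, 749 lower) and 415 to 1098 without 1 library (778 without mutant replicate 1, 415 without mutant replicate 2, 763 without control replicate 1 and 635 without control replicate 2). Pathway genes called numbered 9, against 5 with the length and GC correction and 3 to 10 without 1 library (3 without mutant replicate 2, 5 without control replicate 1, 4 without control replicate 2). Log2 fold changes near 0 changed sign: Gsr was -0.013 with upper-quartile factors, -0.018 on log2(FPKM + 1), -0.020 on log2(FPKM + 0.1) and -0.069 to 0.055 without 1 library. Ggt7 was -0.0064, -0.083 and -0.086 under the same 3 settings and -0.027 to 0.047 without 1 library. Gpx3 was 0.065 with the length and GC correction and -0.13 to 0.062 without 1 library. The cause of these changes was not tested. Deviations from the group mean correlated at 0.14, -0.035 and 0.18 between same-numbered libraries, and at -0.20 to 0.083 between differently numbered ones. These few values cannot decide whether the numbers pair the mice, and the labels do not say. With a replicate block 1758 genes, 2 of the 9 members and 12 pathway genes were called. With 137 to 217 reads per library, Gpx3 and Gss limit what could be detected.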
